A study of Prunus sibirica with 6 samples.

Results

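The genes PARG29387, PARG29389 and PARG29390 are 3 neighbouring genes on the assembly contig tig00008188, measured in the Siberian apricot (Prunus sibirica). Each is described by its similarity to putative pectinesterase/pectinesterase inhibitor 28 of Arabidopsis. They were taken by gene identifier from a table of 31889 genes and were chosen for their high level in these same libraries, so their levels are a description and carry no test. The description is not limited to them: 6 genes of the table have it, 4 of them on this contig, and the fourth, PARG29386, is given beside the 3 as a neighbour. RNA was sequenced from floral organs at the blooming stage that had been damaged by natural frost at -4 °C. Clone 338, with strong frost resistance, and clone 28, with weak frost resistance, gave 3 libraries each, called strong and weak libraries 1 to 3. Where 3 values are given for a clone they are in that order. Each kind of resistance is thus a single clone, every flower was frosted, and no unfrosted flower was analysed here. Separate trees are not named in the labels, and the p-values therefore reflect only how far these libraries spread, which may be technical.

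Pectinesterases (pectin methylesterases) take methyl groups off homogalacturonan, the main pectin of the plant cell wall, and the pectin without them can be cross-linked by calcium or cut by polygalacturonases and pectate lyases. Many are made with an inhibitor-like stretch in front of the enzyme itself, and separate pectinesterase inhibitors block the enzymes. In growing pollen tubes pectin reaches the tip in methylated form and loses its methyl groups further back, and in Arabidopsis the pectinesterases VANGUARD1 and PPME1 are needed for normal growth of the tube.

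Reads assigned to genes numbered 16367632 to 18866306 per library. Weak library 3 stood apart from its own group: its log2 values correlated at 0.895 to 0.925 with the strong libraries and at 0.849 and 0.861 with weak libraries 1 and 2, as a description over tested genes, which are not replicates. Values are therefore given library by library, and the clone means with and without it. Levels are FPKM as deposited, a read density corrected for gene length, which allows levels of genes of different length to be set side by side. Their scaling between libraries did not follow the reads alone. A read in a gene of 1 kilobase counted as 0.0439, 0.0514 and 0.0372 FPKM in the strong libraries. In the weak libraries it counted as 0.0965, 0.0921 and 0.0481 FPKM, so ratios of FPKM between the clones also hold this scaling.

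All 3 genes lie on the minus strand within 21359 bases, PARG29387 at 185616 to 187437, PARG29389 at 199777 to 201694 and PARG29390 at 205084 to 206974 (build not given in the sources used here). Their listed lengths are 1728, 1692 and 1710 bases, which leaves 94, 226 and 181 bases of their spans outside the listed sequence. Both an inhibitor domain (PF04043) and a pectinesterase domain (PF01095) are annotated in all 3, as in 37 of the 73 genes of the table described as pectinesterases. The fourth gene of that description, PARG29386, lies 3327 bases from PARG29387 at lower coordinates on the same strand, at 180327 to 182288, with a listed length of 1728 bases. Genes of the same description side by side can share reads. The table does not show how such reads were assigned, so the split between these genes is less certain than their sum.

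The run of highly expressed genes is interrupted. PARG29388, named for RNA-dependent RNA polymerase 1, an enzyme of antiviral RNA silencing, lies between PARG29387 and PARG29389 on the plus strand and stood at 0.195, 0.108 and 0.0784 FPKM in the strong libraries and at 0.0904, 0 and 0.0225 FPKM in the weak ones. On the far side of PARG29390, after a gap of 10169 bases, came PARG29391, a probable acyl-CoA dehydrogenase, with means of 17.0 FPKM in the strong and 35.6 FPKM in the weak clone (log2 difference, strong minus weak, -1.02 ± 0.21 SE, limma adjusted p = 0.0303). Beyond it PARG29392, named for sucrose synthase 2, was at 1.29 ± 0.257 FPKM (SD, n = 3) against 0.206 ± 0.244 FPKM, with a log2 difference of 0.94 ± 0.22 (limma adjusted p = 0.0394). It reached 1 FPKM in the strong libraries only, and so met the filter for testing through the clone where it was higher. With no filter it also passed (limma adjusted p = 0.0303). At lower coordinates than the pectinesterases, the condensin gene PARG29385 and the RING finger gene PARG29384 had positive differences, 1.54 ± 0.59 and 0.97 ± 0.27, and did not pass the test (limma adjusted p = 0.0920 and 0.0553). PARG29393, the last of the 3 neighbours on that far side, carries no description and stayed at or below 0.668 FPKM. The calls of PARG29391 and PARG29392 were lost without any 1 of the strong libraries or of weak libraries 1 and 2 (limma adjusted p = 0.0714 to 0.154) and held without weak library 3, and that of PARG29391 was lost when libraries were rescaled to a common FPKM sum (log2 difference -0.22) and that of PARG29392 with a pseudocount of 0.1 (limma adjusted p = 0.0605). Thus 1 flanking gene was called lower and 1, close to the filter, higher in the strong clone, against 7.78% and 7.53% of all tested genes. The flanking genes other than PARG29386 stayed at or below 60.8 FPKM in every library. Over the other 63 genes of the contig the median of the mean level was 4.91 FPKM.

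**Figure D1:**
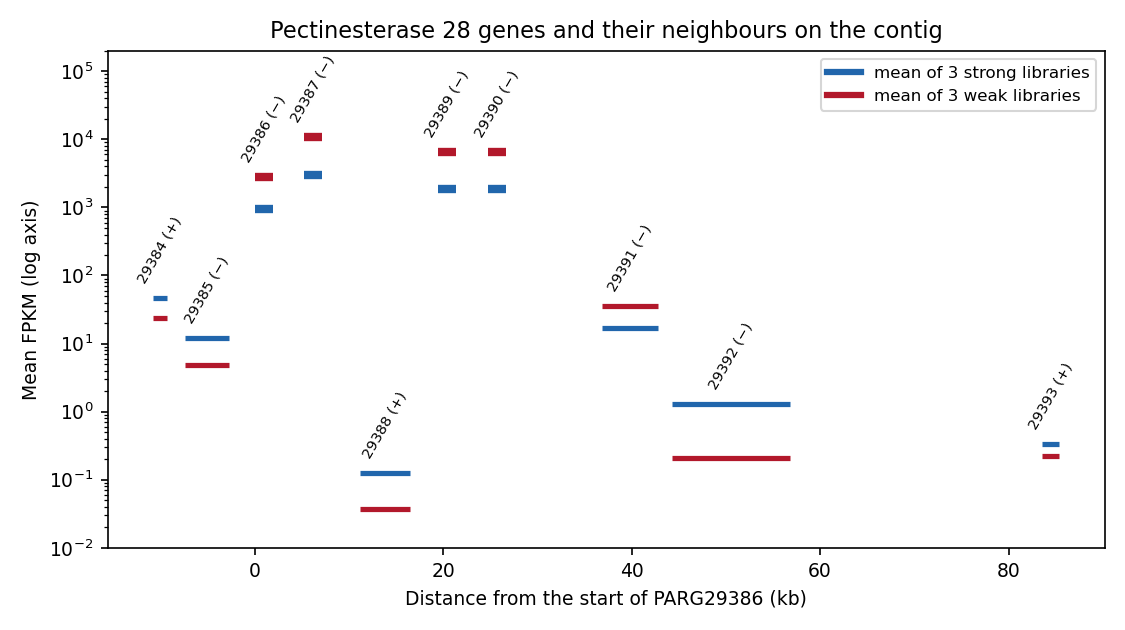
Genes around the pectinesterase 28 genes, drawn by distance in kilobases from the start of PARG29386 (horizontal axis) at their mean FPKM in the strong (blue) and weak (red) clone, 3 libraries each, on a log axis, with the last digits of the gene identifier and the strand. The 4 pectinesterase genes stand at mean levels of 943 FPKM or more in both clones, while PARG29388 between them stays under 0.2 FPKM in every library.

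PARG29387 was listed at 14770, 13365 and 4409 FPKM in the weak libraries, against 2667, 4463 and 1721 FPKM in the strong ones. It was the most abundant of all genes in weak libraries 1 and 2 and ranked 3 in weak library 3 and 3, 4 and 6 in the strong libraries. PARG29389 was at 8958, 8123 and 2593 FPKM in the weak and at 1596, 2899 and 1043 FPKM in the strong libraries, and ranked between 10 and 26 among all genes. PARG29390 followed it closely, at 8883, 8077 and 2613 FPKM in the weak and 1610, 2933 and 1087 FPKM in the strong libraries. For each of the 3 genes the order was weak library 1, weak library 2, strong library 2, weak library 3, strong library 1 and strong library 3. Since strong library 2 lay above weak library 3, the clones overlapped. The values rest on 47415 to 264521 reads per gene and library, a counting error of 0.459% of the value at most, which is far below the spread between libraries.

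**Figure D2:**
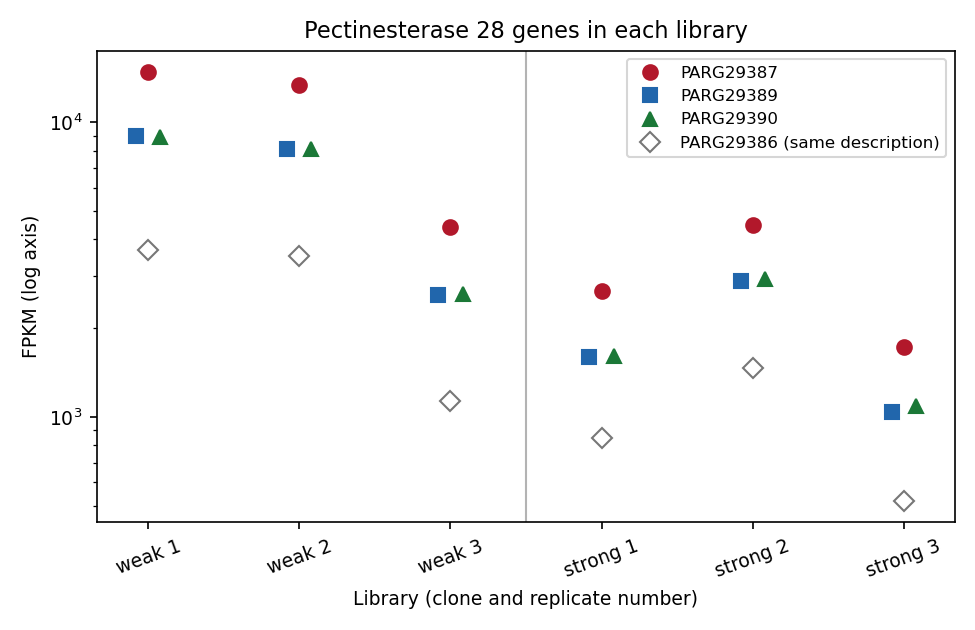
FPKM (log axis) of PARG29387, PARG29389, PARG29390 and of PARG29386, the neighbour with the same description, in each of the 6 libraries. Weak libraries 1 and 2 are highest for all 4 genes, and weak library 3 lies among the strong libraries, just under strong library 2.

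The mean of PARG29387 was 10848 ± 5621 FPKM for the weak and 2950 ± 1393 FPKM for the strong libraries (SD, n = 3). On the log2(FPKM + 1) scale the difference, strong minus weak, was -1.80 ± 1.02 (SE). For PARG29389 the means were 6558 ± 3459 and 1846 ± 953 FPKM, with a log2 difference of -1.76 ± 0.89. For PARG29390 they were 6525 ± 3411 and 1877 ± 951 FPKM, with a log2 difference of -1.73 ± 0.88. Weak libraries 1 and 2 alone averaged 14067 FPKM of PARG29387, 3.19 times weak library 3, which itself was 1.49 times the mean of the strong libraries. Without weak library 3 the log2 differences of the 3 genes, in the order above, were -2.36 ± 0.78, -2.33 ± 0.67 and -2.29 ± 0.66. After scaling all libraries to 1 common FPKM sum (called equal sums) they were -0.97 ± 0.46, -0.93 ± 0.44 and -0.89 ± 0.43, while the median log2 difference of all tested genes moved from 0.05 to 0.75. Of all tested genes 15.3% passed the threshold (limma adjusted p under 0.05) between the clones, 7.78% lower and 7.53% higher in the strong clone (higher calls were 49.2% of the calls, and 69.5% with equal sums), and 45.4% had no overlap between the libraries of both clones. In whole flowers, fewer cells of a type and less RNA per cell cannot be told apart.

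Together the 3 genes took 3.45%, 3.36% and 1.99% of all reads in the weak libraries, against 1.36%, 2.08% and 0.94% in the strong ones. The division among them hardly moved. PARG29387 held 45.3%, 45.2% and 45.9% of their summed FPKM in the weak libraries, against 45.4%, 43.3% and 44.7% in the strong ones, so strong library 2 had the lowest share. PARG29390 was at 0.992 to 1.008 times PARG29389 in the weak libraries, against 1.009 to 1.043 times in the strong libraries. The clones thus did not overlap in this ratio, by a narrow margin. Nor did they in the share of PARG29390, at 27.18% to 27.32% in the weak and 27.42% to 28.49% in the strong libraries. The ratio of PARG29387 to PARG29389 was 1.65 to 1.70 in the weak and 1.54 to 1.67 in the strong clone.

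The ratio to the fourth gene on the contig moved further. PARG29386 was at 3682, 3515 and 1128 FPKM in the weak libraries, against 845, 1466 and 518 FPKM in the strong libraries. PARG29387 was 4.01, 3.80 and 3.91 times as high as PARG29386 in the weak libraries, against 3.16, 3.04 and 3.32 times in the strong ones. The clones did not overlap in this ratio, nor in that of PARG29389 to PARG29386 (2.30 to 2.43 in the weak and 1.89 to 2.01 in the strong clone) or of PARG29390 to PARG29386 (2.30 to 2.41 and 1.91 to 2.10). Weak library 3, which lay with the strong libraries in level, lay with the weak libraries in all 3 ratios. A ratio within a library does not depend on the scaling between libraries, and it does not say which gene moved. It does depend on how shared reads were assigned to these genes, which was not tested. No test was made of these ratios, since the 3 genes were chosen on their levels in these libraries. The 3 ratios share PARG29386 as divisor and are not separate observations. How many other pairs of genes have ratios without overlap was not counted. In level alone 45.4% of all tested genes had no overlap.

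Set against other genes, some ratios overlapped between the clones and others did not, in either direction. LAT52 (PARG10934), named for an anther-specific protein of tomato pollen, was at 8917, 7714 and 2391 FPKM in the weak and at 1440, 2618 and 1059 FPKM in the strong libraries. PARG29387 was 1.66 to 1.84 times LAT52 in the weak and 1.63 to 1.85 times in the strong clone, so that the ratios overlapped, as did those of PARG29389 (up to 1.08 and 0.985 to 1.11) and PARG29390 (0.996 to 1.09 and 1.03 to 1.12). LAT52 is a single pollen gene, chosen after its values were seen, and the comparison with the whole pollen list came out otherwise. The log2(FPKM + 1) value of PARG29387 exceeded the mean of the 10 tested pollen-list genes by 5.30 to 5.60 in the weak and by 4.47 to 4.65 in the strong libraries, with no overlap. For PARG29389 the excess was 4.54 to 4.88 in the weak and 3.75 to 4.03 in the strong libraries, and for PARG29390 it was 4.55 to 4.87 and 3.81 to 4.04, again with no overlap. The ratio to PARG27559, a pectinesterase 45 gene on linkage group 8, overlapped as well, at 5.94 to 6.21 in the weak and 5.80 to 6.30 in the strong clone for PARG29387. Against PARG16199, also described as pectinesterase 45, on linkage group 4, the clones did not overlap: PARG29387 was 3.00 to 3.14 times as high in the weak and 2.29 to 2.53 times in the strong clone. Against the exopolygalacturonase gene PARG29399 on the same contig they did not overlap either, in the other direction. There PARG29387 was 5.07 to 5.40 times as high in the weak and 5.51 to 5.74 times in the strong clone. The widest of these contrasts was with PARG08978, the most abundant gene named for the Arabidopsis pollen pectinesterase PPME1, where PARG29387 was 3.12 to 3.60 times as high in the weak clone and 9.18 to 10.7 times in the strong clone. The other tested genes of that name, given below, differed less between the clones than PARG08978. For these ratios too, the share of gene pairs without overlap was not counted.

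**Figure D3:**
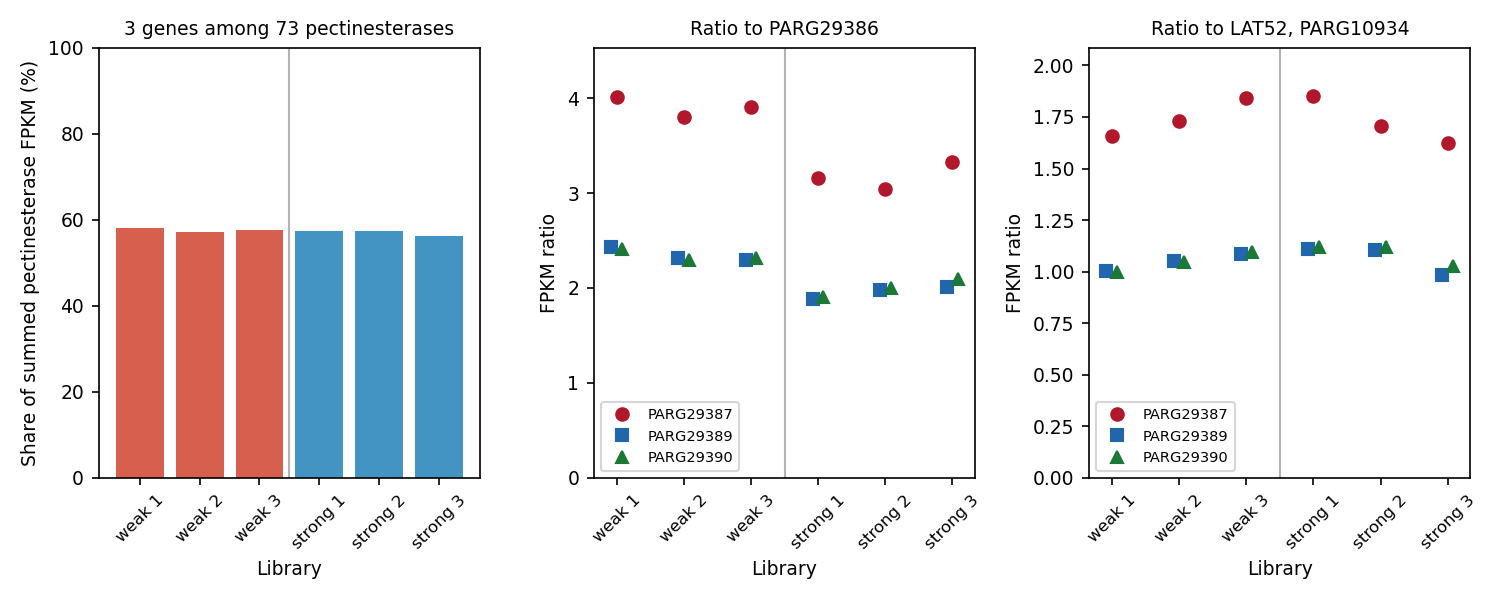
Left, share of the summed FPKM of 73 pectinesterase genes taken by PARG29387, PARG29389 and PARG29390 together in each library (bars from 0). Middle and right, ratio of the FPKM of each of the 3 genes to that of PARG29386 and of LAT52 in each library. The share lies between 56.3% and 58.1% in all 6 libraries, the ratios to PARG29386 are higher in all weak than in all strong libraries, and the ratios to LAT52 overlap.

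Of the 73 genes described as pectinesterases, 31 reached 1 FPKM in at least 3 of the 6 libraries, all 3 of the contig genes among them, and 42 did not. In each of the 6 libraries PARG29387 was the most abundant of the family, PARG29389 and PARG29390 came next, and PARG16199 followed them. The 3 genes took 58.1%, 57.2% and 57.7% of the summed pectinesterase FPKM in the weak libraries, against 57.3%, 57.4% and 56.3% in the strong ones. The clones overlapped in this share. PARG16199 was at 3563 FPKM on average in the weak and 1234 FPKM in the strong clone, with a log2 difference of -1.47 ± 0.78 that did not pass the test (limma adjusted p = 0.175). PARG29386, with -1.50 ± 0.73, and PARG27559, with -1.78 ± 0.65, did not pass it either (limma adjusted p = 0.148 and 0.0855). The remaining pectinesterase 28 genes lie on linkage groups. PARG04383 on linkage group 2 was at 263 FPKM on average in the weak and 81.3 FPKM in the strong clone (-1.59 ± 0.54, limma adjusted p = 0.0776), and PARG02860 on linkage group 1 stayed at or below 0.216 FPKM in all 6 libraries.

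Among the 28 tested pectinesterases other than the 3, 6 were lower in the strong clone and 0 were higher by limma, against 7.78% lower and 7.53% higher of all genes tested, and at an unadjusted p under 0.05 there were 13 lower and 2 higher, where all tested genes gave 23.3% lower and 22.5% higher. Their median log2 difference was -1.28, against 0.05 over all tested genes, and 23 of the 28 differences were negative. PARG08978 was at 4395, 4281 and 1226 FPKM in the weak libraries, against 269, 486 and 160 FPKM in the strong ones, with no overlap. Its log2 difference was -3.36 ± 0.71 (limma adjusted p = 0.0312). The other tested PPME1 genes, PARG30253, PARG19241 and PARG30255, had differences of -1.71 ± 0.79, -1.76 ± 0.67 and -1.57 ± 0.55. None of these passed the test (limma adjusted p = 0.132, 0.0935 and 0.0798). PARG27557, described as pectinesterase PPE8B, on linkage group 8, was at 150, 110 and 60.3 FPKM in the weak and at 16.8, 11.9 and 13.9 FPKM in the strong libraries (-2.74 ± 0.35, limma adjusted p = 0.00917). The call of PARG08978 held with weak library 3 left out and with none of the other 5, and that of PARG27557 held without any 1 weak library and was lost without any 1 strong library. The other 4 that passed were much less abundant than the contig genes, at means of 11.8 to 142 FPKM in the weak and 5.34 to 55.3 FPKM in the strong clone. The count rests on single libraries, as did that of all tested genes. It was 0 without strong library 1, 2 or 3, 1 without weak library 1 or 2, and 23 without weak library 3. Over all 16462 tested genes the calls were 166, 353 and 230 without strong library 1, 2 and 3. They were 610 and 395 without weak library 1 and 2, and 12075 without weak library 3. With equal sums 3 of 29 pectinesterases passed, all lower, and their median was -0.44.

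**Figure D4:**
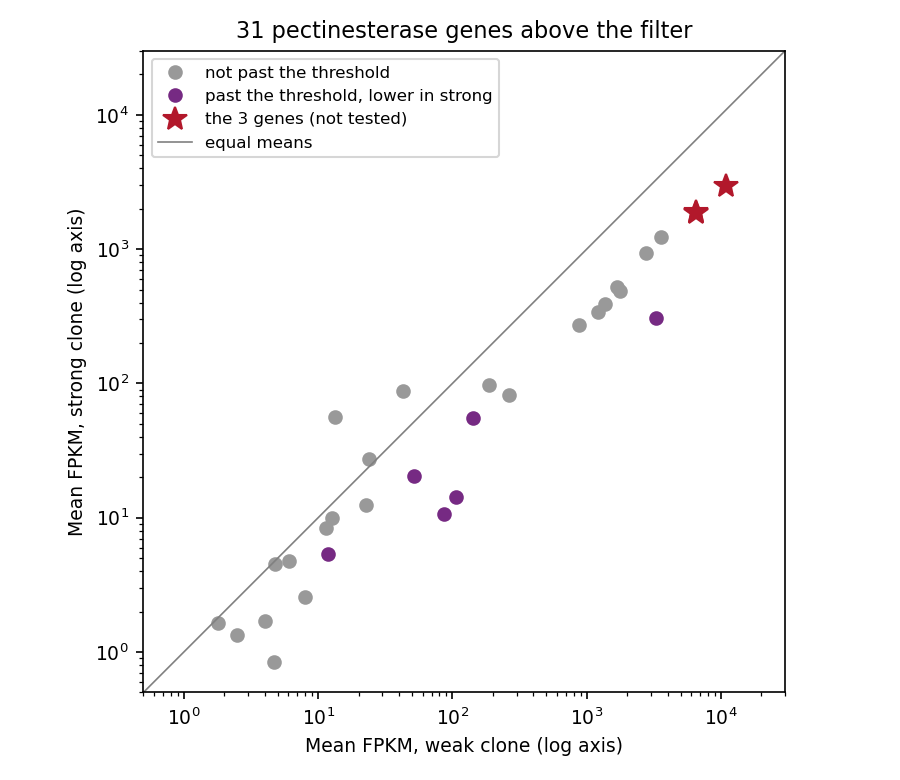
Mean FPKM of the 31 pectinesterase genes above the filter in the weak (horizontal) and strong (vertical) clone, 3 libraries each, both on log axes, with a line of equal means. The 3 contig genes (stars, PARG29389 and PARG29390 nearly on top of each other) are the most abundant in both clones, and the 6 genes that passed the test (purple) lie below the line.

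Genes with a profile most like theirs were found by the root mean square difference, over the 6 libraries, between log2(FPKM + 1) values centred on each gene's own mean and the mean profile of the 3 genes. Among 8249 other genes with a mean of at least 10 FPKM the median of this difference was 1.01. The 3 genes themselves lay 0.03, 0.02 and 0.02 from their mean profile. The closest of the others was PARG27737 on linkage group 8, described as pollen-specific protein SF21, at 0.02, with 974, 905 and 289 FPKM in the weak and 175, 324 and 115 FPKM in the strong libraries. Next came PARG23809 on linkage group 7, actin-depolymerizing factor 7, a remodeller of actin filaments that in Arabidopsis is found in pollen, also at 0.02. It stood at 428, 378 and 121 FPKM in the weak and 73.3, 134 and 47.3 FPKM in the strong libraries, about the same shape at a far lower level. A pectate lyase gene (PARG24764, linkage group 7) and PARG26587 and PARG19728, which have no description, completed the first 5, each at 0.03. LAT52 was at 0.06 and ranked 70, the exopolygalacturonase gene PARG29399 on the same contig was at 0.08 and ranked 139, and PARG29386 was at 0.14 and ranked 325. The nearest neighbour on the contig was therefore less like the 3 in profile than many genes on other linkage groups. The ranking is a description over 6 libraries and carries no test.

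**Figure D5:**
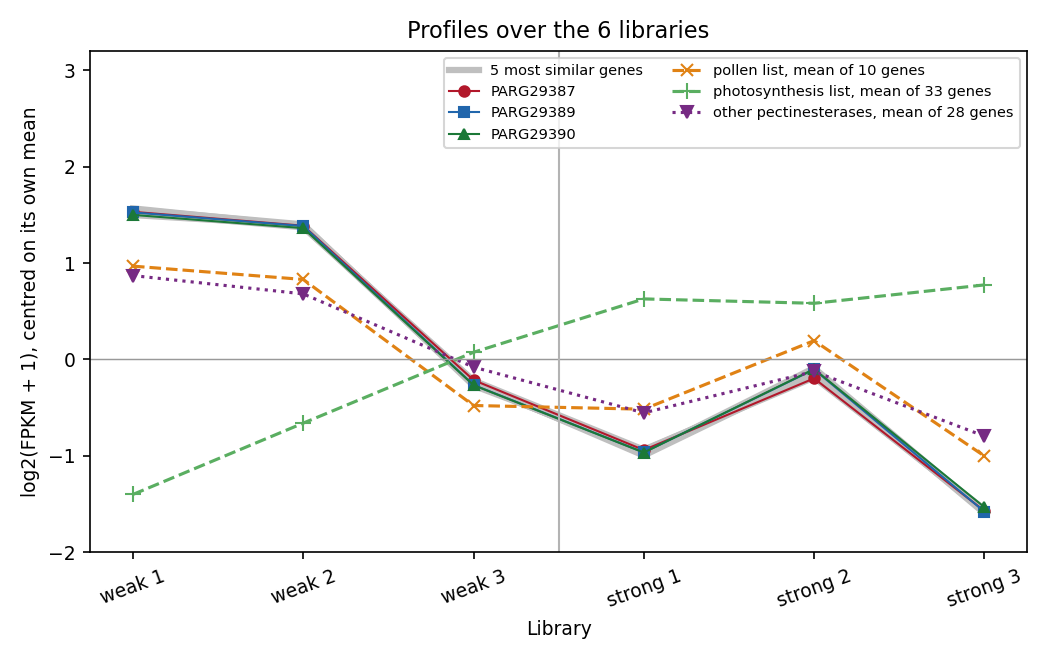
log2(FPKM + 1) centred on its own mean in each library for PARG29387, PARG29389 and PARG29390, for the 5 genes most like them (grey), and for the means of the pollen list (10 tested genes), the photosynthesis list (33) and the other pectinesterases (28). The 3 genes and the 5 most similar ones lie nearly on 1 line, the 3 at up to 1.53 in weak library 1 and down to -1.58 in strong library 3, and the photosynthesis list runs the other way.

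The other genes of pectin metabolism included some near the level of the contig genes. Of 33 tested polygalacturonase genes, which cut pectin chains, 5 were lower in the strong clone and 0 were higher by limma. Over all tested genes these shares were 7.78% and 7.53%. At an unadjusted p under 0.05 there were 14 lower and 4 higher, against 23.3% and 22.5% of all tested genes. The median log2 difference of the list was -1.22. The most abundant, exopolygalacturonase PARG13849 on linkage group 4, was at 7274, 6489 and 2254 FPKM in the weak and 1765, 2527 and 1183 FPKM in the strong libraries and did not pass the test (limma adjusted p = 0.198). The next 3 by level were PARG10950, PARG19845 and PARG26986, with log2 differences of -1.94 ± 0.80, -1.68 ± 0.75 and -1.62 ± 0.67 and limma adjusted p values of 0.107, 0.126 and 0.106. Exopolygalacturonase PARG13856 on linkage group 4 had the smallest adjusted p of the list and was at 672, 532 and 211 FPKM in the weak and 11.1, 20.3 and 3.39 FPKM in the strong libraries (-5.35 ± 0.68, limma adjusted p = 0.00878). The contig itself holds PARG29399, an exopolygalacturonase gene, at 2817, 2637 and 817 FPKM in the weak and 471, 778 and 312 FPKM in the strong libraries, with no overlap, and did not pass the test (limma adjusted p = 0.0813). Without strong library 1 the list's count was 0, and without strong library 2 or 3 or weak library 1 or 2 it was 1. Without weak library 3 it was 31 of 33, against 12075 of all 16462 tested genes. With equal sums the list's count was 2.

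Of 12 tested pectate lyase genes, 3 were lower and 0 higher in the strong clone by limma, against 7.78% and 7.53% of all tested genes. The median log2 difference of the 12 was -1.02. At an unadjusted p under 0.05 there were 4 lower and 3 higher of the 12, near the 23.3% and 22.5% of all tested genes. PARG06281, PARG13067 and PARG24764 averaged 4266, 3659 and 2111 FPKM in the weak and 1192, 1103 and 582 FPKM in the strong clone, and none of the 3 passed the test (limma adjusted p = 0.127, 0.134 and 0.0908). The fourth by level, PARG17856, averaged 37.6 and 23.1 FPKM, far below them, and its log2 difference of -0.63 ± 0.36 turned to 0.18 with equal sums (limma adjusted p = 0.201 as deposited). A probable pectate lyase 8 gene, PARG20431, had the smallest adjusted p of the list, at 17.7, 9.46 and 10.5 FPKM in the weak and 2.41, 1.71 and 1.35 FPKM in the strong libraries (-2.23 ± 0.29, limma adjusted p = 0.00974). The list's count was 0 without strong library 1, 2 or 3, 2 without weak library 1 and 1 without weak library 2. Without weak library 3 it was 11 of 12, against 12075 of all 16462 tested genes.

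Genes with the inhibitor domain and no pectinesterase domain, a list that also holds invertase inhibitors, numbered 13 in the test. In the strong clone 1 of these was lower and 1 was higher, against 7.78% and 7.53% of all tested genes. At an unadjusted limma p under 0.05 there were 7 lower and 2 higher of the 13, against 23.3% and 22.5% of all tested genes. The median log2 difference of the list was -0.58, and 10 of the 13 differences were negative. The 4 most abundant have no protein description. PARG19873 was at 1274, 1090 and 385 FPKM in the weak and 209, 293 and 141 FPKM in the strong libraries, with no overlap, and did not pass the test (-1.98 ± 0.56, limma adjusted p = 0.058). PARG04523, PARG22453 and PARG30405 averaged 682, 551 and 188 FPKM in the weak and 234, 141 and 61.1 FPKM in the strong clone (limma adjusted p = 0.0873, 0.0616 and 0.0884). The inhibitor genes were thus each far below PARG29387 in level. Past the threshold were PARG12634, at 2.80 ± 3.50 FPKM in the weak and 14.4 ± 3.21 FPKM in the strong clone (2.38 ± 0.60, limma adjusted p = 0.0467), and PARG19816, described as a 21 kDa protein, at 2.48 ± 0.720 and 0.233 ± 0.0700 FPKM (-1.48 ± 0.22, limma adjusted p = 0.0131). PARG12634 was at 0.576, 0.989 and 6.83 FPKM in the weak libraries, and so met the filter through the clone where it was higher. It did not pass with a pseudocount of 0.1 or with no filter. PARG19816 reached 1 FPKM in the weak libraries only, and so met the filter through the clone where it was higher. With no filter it also passed (limma adjusted p = 0.0138). This inhibitor count was 0 without any 1 of the strong libraries or of weak libraries 1 and 2. Without weak library 3 it was 10 of 13, against 12075 of all 16462 tested genes.

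Galacturonosyltransferase genes, related to enzymes that build pectin and xylan chains, gave 1 lower and 0 higher of 19 tested by limma, against 7.78% and 7.53% of all tested genes. At an unadjusted p under 0.05 there were 8 lower and 2 higher, against 23.3% and 22.5% of all tested genes. The median log2 difference of the 19 was -0.35, and that of the list with equal sums was 0.41, where 2 were higher and 1 lower. Galacturonosyltransferase-like 4 (PARG20041) was the most abundant, with means of 1046 FPKM in the weak and 275 FPKM in the strong clone (-1.82 ± 0.60, limma adjusted p = 0.0731). Galacturonosyltransferase-like 7 (PARG19879) was at 218, 174 and 71.8 FPKM in the weak and 29.7, 35.4 and 30.3 FPKM in the strong libraries and passed the test (-2.11 ± 0.42, limma adjusted p = 0.0269). PARG13027 and PARG06205, the next by level, had differences of 0.58 ± 0.31 and -1.13 ± 0.41 (limma adjusted p = 0.177 and 0.0855). This count was 0 without any 1 of the strong libraries or of weak libraries 1 and 2. Without weak library 3 it was 12 of 19, against 12075 of all 16462 tested genes.

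Pollen tubes also carry RALF peptides and receptor kinases that watch over the wall. A list for RALF peptides, ANXUR and FERONIA receptors and pollen-specific extensins followed protein names and was not limited to genes of pollen. Among its 16 tested genes, 2 were higher and 1 was lower in the strong clone. Of all tested genes 7.53% were higher and 7.78% lower. The median log2 difference of the list was -0.36, and 0.37 after equal sums. RALF-like 22 (PARG12203), a peptide signal, was at 9553, 8955 and 3457 FPKM in the weak and 2401, 3535 and 1459 FPKM in the strong libraries. ANXUR2 (PARG03106), which in Arabidopsis keeps the tube from bursting early, was at 1103, 1036 and 321 FPKM in the weak against 214, 372 and 140 FPKM in the strong libraries. Neither passed the test (limma adjusted p = 0.21 and 0.0882), nor did the pollen-specific extensin-like genes PARG11993 and PARG21321 (limma adjusted p = 0.0918 and 0.186). RALF-like 19 (PARG14674) was lower in the strong clone, at 11.1, 8.89 and 2.54 FPKM in the weak against 0.404, 0.355 and 0.684 FPKM in the strong libraries (-2.35 ± 0.47, limma adjusted p = 0.0269). It met the filter through the weak libraries only, and it also passed with no filter (limma adjusted p = 0.0364). A FERONIA gene (PARG13268) was higher, at 0.753 ± 0.478 FPKM in the weak and 4.60 ± 1.22 FPKM in the strong clone (1.69 ± 0.29, limma adjusted p = 0.0186). Its weak libraries were at 0.909, 0.217 and 1.13 FPKM, so it met the filter through the clone where it was higher. With no filter PARG13268 also passed (limma adjusted p = 0.0267). The count was 0 without any 1 of the strong libraries or of weak libraries 1 and 2. Without weak library 3 it was 13 of 16, against 12075 of all 16462 tested genes. Of the 9 genes named here as past the threshold in these lists and among the pectinesterases, 0 kept that side without strong library 1, 1 without strong library 2 or 3, 3 without weak library 1 or 2, and 9 without weak library 3.

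Marker lists gave the following levels. A pollen list of 11 genes, which holds LAT52, the SF21 gene PARG27737 and the extensin-like genes named above and of which 0 were at 0 in all libraries, summed to 14164, 12521 and 4009 FPKM in the weak and to 2769, 4748 and 1981 FPKM in the strong libraries, so the clones overlapped as they did for the contig genes. Of its 10 tested genes 0 were higher and 0 lower by limma, against 7.53% and 7.78% of all tested genes. At an unadjusted p under 0.05 there were 0 higher and 2 lower, near the 23.3% of all tested genes for lower. LAT52 supplied most of the sum. The median log2 difference of the pollen list was -0.82, smaller in size than the -1.80, -1.76 and -1.73 of the contig genes. The Ole e 1 allergen genes PARG23610, PARG23611 and PARG23507, named after their values were seen, had log2 differences of -0.17 ± 0.71, 0.13 ± 0.55 and -0.43 ± 0.50 (limma adjusted p = 0.854, 0.860 and 0.501). The most abundant Ole e 1 gene, PARG12078, averaged 430 FPKM in the weak and 200 FPKM in the strong clone (-1.05 ± 0.61, limma adjusted p = 0.206). Without weak library 3 the pollen count was 6 of 10, all lower, against 12075 of all 16462 tested genes called in either direction. A list of 38 photosynthesis genes, which mark green parts, ran the other way, at 1900 to 3109 FPKM in the weak and 4669 to 5526 FPKM in the strong libraries. Of its 33 tested genes 14 were higher and 1 was lower in the strong clone, against 7.53% and 7.78% of all tested genes. This photosynthesis count of 15 was 0 without any 1 of the strong libraries or weak library 2, and 1 without weak library 1. It was 29 of 33 without weak library 3, against 12075 of all 16462 tested genes. With a pseudocount of 0.1 it was 7 and with no filter 8. A pistil list of 6 genes was named for ribonucleases S-3, S-4 and S-7 and for stigma-specific STIG1-like protein 1. It was low throughout, at 10.2 to 14.8 FPKM in the weak and 1.73 to 3.03 FPKM in the strong libraries, with 2 genes at 0 in all libraries. Whether these genes measure pistil content in both clones was not tested. Of its 2 tested genes 1 was lower in the strong clone, against 7.78% of all tested genes, and 2 were without weak library 3. The 1 called as deposited, a ribonuclease S-3 gene (PARG20305), averaged 5.14 FPKM in the weak and 0.0548 FPKM in the strong clone. It reached 1 FPKM in the weak libraries only and so met the filter through them. MALE STERILITY 1 (PARG06919), a tapetum marker, was at 0 in all 6 libraries. The label of pollen rests on such marker genes and on the protein names alone: no sample of separated pollen or anthers was analysed here, so the cells that hold this RNA were not measured. The part of pollen content in the difference between the clones was not tested.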

How the data were processed

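The authors deposited 1 table of FPKM values for 6 libraries, with gene positions, lengths and descriptions. CASAVA, Bowtie2 and RSEM are named, per the submitters' processing notes, with version and build not given in the sources used here. Columns were matched to samples by title and grouped by the clone label.

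Within 0.01 read, 100% of positive values times the listed length came out as whole reads in each library, which gave reads per gene. All pairs of libraries differed by more than sampling noise.

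The 16462 genes that reached 1 FPKM in 3 or more of 6 libraries were tested on log2(FPKM + 1) with limma 3.58.1 in R 4.3.3 (eBayes with trend, two-sided, Benjamini-Hochberg, threshold 0.05). Fold changes on that scale understate changes of low genes. The test was also run on simulated data with independent noise per gene. No library stood apart there as weak library 3 does here, so that run does not show how the test does on these data. The filter was met by all 3 contig genes.

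Lists follow words in the descriptions. Named genes were up to 3 neighbours on each side, the 5 most similar profiles and, per list, the 4 most abundant and the smallest adjusted p in each direction. PARG29399, PARG04383, PARG02860, PARG10934 (LAT52), PARG06919, PARG15926, PARG23610, PARG23611, PARG23507, PARG12078, PARG30253, PARG19241, PARG30255 and PARG23340 were added after their values were seen. The members and lists were chosen with earlier results of these data known. Alternatives covered pseudocount, filter, scaling, single libraries and a replicate block.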

Additional observations from a re-analysis of the deposited data

How the results depend on the processing

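The log2 differences of PARG29387, PARG29389 and PARG29390 were negative under all alternatives run. With 1 library left out they ranged from -2.36 to -1.47, from -2.33 to -1.41 and from -2.29 to -1.40 in that order. The number of genes past the threshold between the clones was 2520 and ranged from 166 to 12075 with 1 library left out. It was 1886 with a pseudocount of 0.1, 2344 without the filter and 2570 with equal sums, where 69.5% of calls were higher ones, compared with 49.2% on the deposited scale. For the other pectinesterases the count of 6 ranged from 0 to 23 with 1 library left out and was 3 with equal sums. As a replicate block, the numbers in the titles gave 6439 genes and 17 pectinesterases. The same-numbered libraries did not deviate together in every pair (correlations of -0.236, 0.588 and 0.605 over genes), and strong library 1 was most like weak library 3, so the numbers were not taken to pair them. Of the 39 other tested genes named by the rule, with equal sums PARG17856 reversed, from -0.63 to 0.18, PARG29391 lost its call, and PARG13027 (0.58 to 1.40), PARG19873 (-1.98 to -1.14) and PARG29384 (0.97 to 1.78) passed the threshold. The cause of these shifts was not tested. Depth did not limit the contig genes; genes near 1 FPKM rest on few reads.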

Other observations

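A few pectinesterases did not share the profile of the contig genes. PARG23340, described as probable pectinesterase 68, was at 1.18, 0.566 and 38.2 FPKM in the weak libraries, against 60.5, 52.5 and 55.1 FPKM in the strong ones, so that weak library 3 lay nearer to the strong libraries than to the other weak ones. Its log2 difference was 3.48 ± 1.16 and did not pass the test (limma adjusted p = 0.0749). PARG15926, described as pectinesterase U1, averaged 43.1 FPKM in the weak and 88.1 FPKM in the strong clone, without overlap (1.07 ± 0.33, limma adjusted p = 0.0652). The contig holds 67 genes, of which 14 were at 0 in all libraries. Of the 39 tested genes other than the 3 pectinesterases described, 4 were higher and 3 were lower in the strong clone, against 7.53% and 7.78% of all tested genes. This count of 7 was 0 without any 1 of the strong libraries or weak library 2, and 1 without weak library 1. Without weak library 3 it was 32 of 39, against 12075 of all 16462 tested genes. Both pectinesterases named here were chosen after their values were seen.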
